A study of Homo sapiens with 8 samples.

Results

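The expression of 10 genes of the Notch pathway was compared between side population (SP) and non-side population (NSP) cells of J82, a human cell line established from a bladder cancer. The genes were taken by symbol from the 57820 genes of the count table, and all 10 were found. They are the receptors NOTCH1, NOTCH2 and NOTCH3, the ligands JAG1, JAG2 and DLL1, and the targets HES1, HES4, HEY1 and NRARP. SP cells are those that keep little of the DNA dye Hoechst during cell sorting, NSP cells are the remaining cells, and both came from the same line, kept in the same medium and sorted after the same staining, with no drug given. There were 4 libraries per population, numbered 1 to 4 in each, and the labels do not say whether the numbers stand for separate cultures or sorts, so the p-values measure the spread between these libraries, which may be technical. J82 is a single line, and the comparison holds no untransformed urothelial cells. Of the 10 genes 5 had enough counts for the main model, which leaves out the replicate number, and 0 of these 5 were called different between the populations, where 3.66% of all tested genes were. HES1 had the largest difference, with a mean of 34.7 CPM in SP (SD 18.9, n = 4) and 18.97 CPM in NSP cells (SD 3.71, n = 4). It was not called in 15 of 18 alternatives to the main model, DESeq2 and limma voom among them. These alternatives are not separate checks, since many refit the main model with fewer libraries. Leaving out both libraries numbered 3, or both numbered 4, was chosen after seeing the data. The 3 alternatives that called HES1 higher in SP cells paired libraries of the same number, dropped the filter on low counts, or left out SP replicate 2. The pairing called 12.9% of all tested genes, and the fit without the filter 2.59% of the 26361 genes it tested. SP replicate 2 was the lowest SP library for HES1.

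Notch receptors sit in the cell membrane and are bound by ligands of the Jagged and Delta-like families on a neighbouring cell. Binding lets the protease ADAM10 and then the gamma-secretase complex cut the receptor, and the freed intracellular part enters the nucleus, where it joins the DNA-binding factor RBPJ and a Mastermind coactivator. Genes of the HES and HEY families, which encode basic helix-loop-helix repressors, are the best known targets of this complex, and the pathway is known for its part in the differentiation of the urothelium and in bladder cancer.

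The promoters of the tested targets are shown because the RBPJ factor reads a short core motif, TGGGAA, through which Notch acts on its targets. RefSeq promoter sequences (GRCh38.p14) were matched by symbol for 8 of the 10 members, and DLL1 and HEY1 have no entry in the table used. Each line gives the 250 bases before the annotated start of the gene, on the strand of the gene and 5′ to 3′, and capitals mark TGGGAA found on either strand. The windows are chr3:194135898-194136147 (plus strand) for HES1, chr1:1000098-1000347 (minus strand) for HES4 and chr9:137302272-137302521 (minus strand) for NRARP.
HES1: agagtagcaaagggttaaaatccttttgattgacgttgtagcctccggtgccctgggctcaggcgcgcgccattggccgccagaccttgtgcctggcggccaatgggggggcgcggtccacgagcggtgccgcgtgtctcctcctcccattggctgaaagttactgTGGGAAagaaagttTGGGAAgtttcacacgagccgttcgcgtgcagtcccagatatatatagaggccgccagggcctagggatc
HES4: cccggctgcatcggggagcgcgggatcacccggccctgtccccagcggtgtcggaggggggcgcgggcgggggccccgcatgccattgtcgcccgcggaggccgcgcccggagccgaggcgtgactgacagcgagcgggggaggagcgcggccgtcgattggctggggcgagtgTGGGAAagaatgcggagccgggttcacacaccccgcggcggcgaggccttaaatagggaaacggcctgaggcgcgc
NRARP: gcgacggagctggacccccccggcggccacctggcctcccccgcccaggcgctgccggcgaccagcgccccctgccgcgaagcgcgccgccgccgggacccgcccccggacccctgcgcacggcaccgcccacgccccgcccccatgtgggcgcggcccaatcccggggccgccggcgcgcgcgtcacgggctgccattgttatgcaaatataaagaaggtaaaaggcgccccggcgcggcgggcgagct

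HES1 holds TGGGAA 2 times, starting 84 and 70 bases before the start of the gene, so the copies begin 14 bases apart on the same strand. HES4 holds it 1 time, 76 bases before its start. In NRARP, NOTCH1, NOTCH2, NOTCH3, JAG1 and JAG2 these letters are not in the window. Of the 35116 promoters in the table, 20.8% hold the motif at least 1 time and 2.9% at least 2 times in the same 250 bases. A match describes the letters only and does not show that RBPJ is bound in J82 cells.

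The libraries held 1431823 to 1697218 counts in SP cells and 1489033 to 2073526 in NSP cells, from single-end reads of 50 bp aligned to hg19. The paper gives many times more raw reads per sample than these counts, and the sources used here do not say why. The part of this gap in the low counts of some members was not tested. Values are given as the raw count of a gene in a library or as CPM, the count scaled by the library size after TMM normalization. To be called, a gene needed more than 1.3-fold difference and an adjusted p (Benjamini-Hochberg) below 0.05 in edgeR's quasi-likelihood test, which was run on the 9309 genes that passed a filter on low counts. Of these, 1.63% were called higher and 2.03% lower in SP cells, or 3.66% in either direction. Among markers of the labelled cell type, KRT8 was at 3298 CPM in SP and 4022 CPM in NSP cells on average, while KRT5, KRT20, TP63 and UPK3A were at 1 count or fewer over the 8 libraries. Of 6 blood cell markers, PTPRC, CD3E and HBB had no count, and the summed level of the list was 38.4 to 86.1 CPM in SP and 12.1 to 53.2 CPM in NSP libraries, nearly all of it CD14. KRT7 was called lower in SP cells, at a log2 fold change of -1.35, the 1 gene called of the 14 urothelial and epithelial markers listed. FN1 was the 1 gene called of the 4 mesenchymal markers listed, also lower, at -1.255. The part of these markers in the results on the members was not tested. The sources used here do not state the strand setting of the counting. It is therefore not known whether the counts of a member are reads of its own strand or of the opposite strand. Pairs were taken where at least 50% of the exon bases of a long noncoding RNA cross a coding gene of the opposite strand. Each pair also had to hold at least 100 counts. The noncoding RNA had the higher count per kb in 88.2% of 595 pairs. The part of this pattern in the levels of the members was not tested, nor was a link to the gap between raw reads and counts. In bulk samples, fewer cells that express a gene and less RNA of it per cell cannot be told apart.

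Together the 10 members held 2355 counts over the 8 libraries, of which HES4 took 39.3%, NOTCH2 19.1%, HES1 14.9% and NOTCH1 14.1%. Only NOTCH1, NOTCH2, HES1, HES4 and NRARP passed the filter on low counts. The other 5 members had 1 to 90 counts in all and were not tested in the main model.

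**Figure D1:**
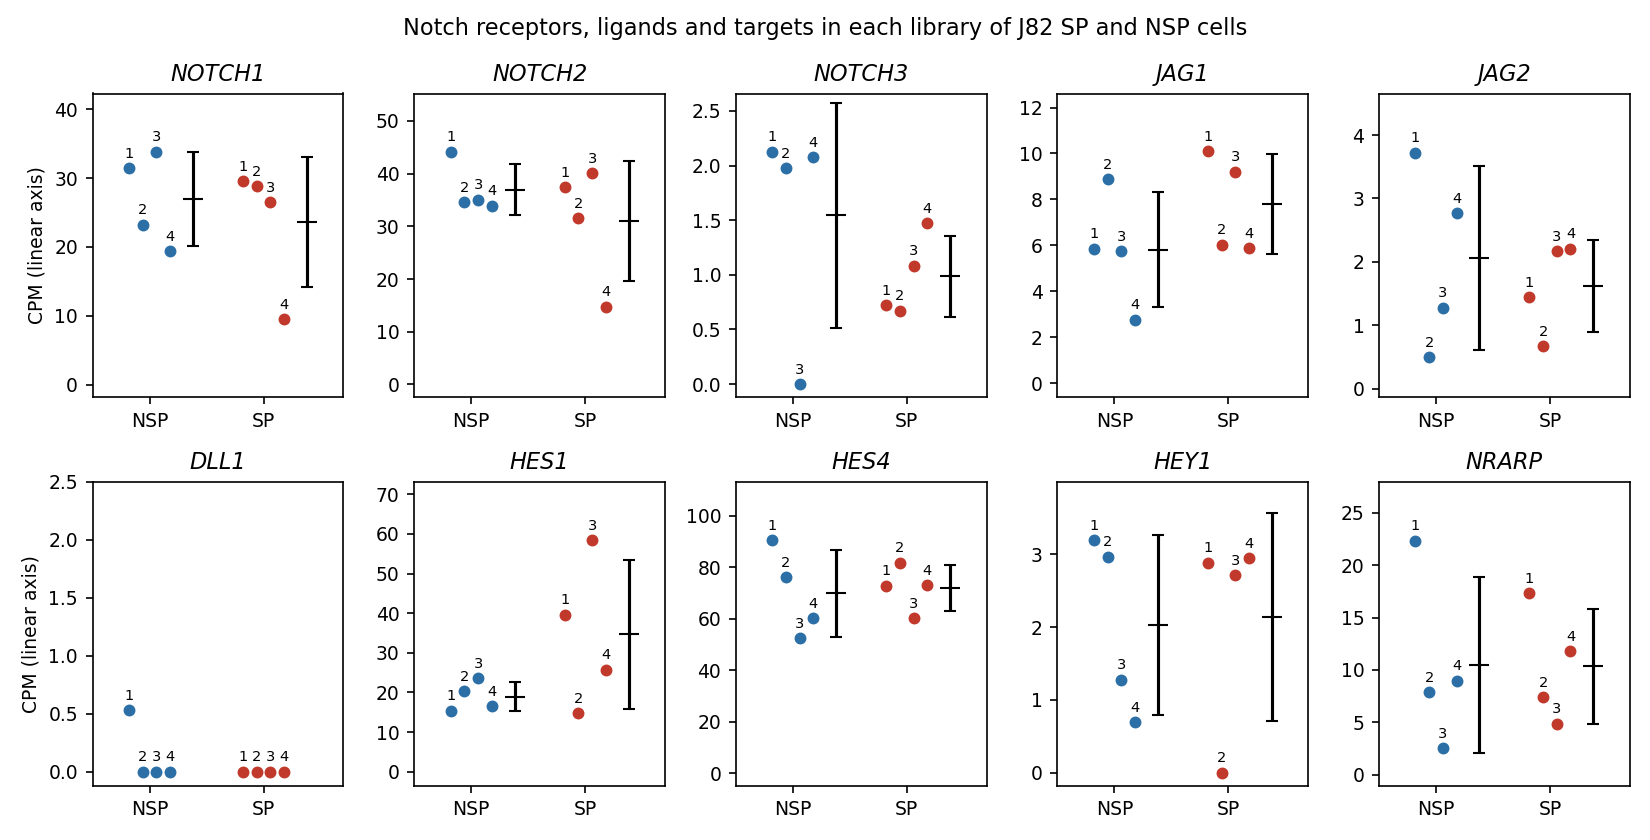
CPM of each of the 10 genes in each library (linear axes, 1 panel per gene), with NSP libraries in blue, SP libraries in red, the replicate number above each point, and the mean with its SD as a black bar (none drawn for DLL1). SP replicate 3 at 58.5 CPM and SP replicate 1 at 39.6 CPM stand above all NSP libraries for HES1, and SP replicate 4 is the lowest library for NOTCH1 and NOTCH2.

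Levels of different genes were compared per kb of exon. They are levels in the deposited counts, and whether these counts come from the strand of each gene was not tested. The order and the percentages below hold for the counts only. HES4 was the highest, at 63.3 CPM per kb on average over the 8 libraries, followed by HES1 at 13.02, NRARP at 3.93, NOTCH2 at 2.03 and NOTCH1 at 2.02 CPM per kb. HES4 lay above HES1 in 8 of 8 libraries, and HES1 above NRARP in 7 of 8. NRARP and NOTCH2 were less clearly ordered (NRARP higher in 6 of 8), and NOTCH2 and NOTCH1 did not differ beyond their spread (NOTCH2 higher in 5 of 8). Below them came JAG1 at 0.732, HEY1 at 0.379, JAG2 at 0.288, NOTCH3 at 0.135 and DLL1 at 0.0174 CPM per kb. NOTCH1 lay above JAG1 and JAG1 above HEY1 in 8 of 8 libraries, whereas HEY1 lay above JAG2 in 5 of 8. Among the 9130 tested genes with an annotated exon length, the level per kb of HES4 was above that of 88.2%, HES1 above 66.3%, NRARP above 37.2%, NOTCH2 above 19.9% and NOTCH1 above 19.8%.

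**Figure D2:**
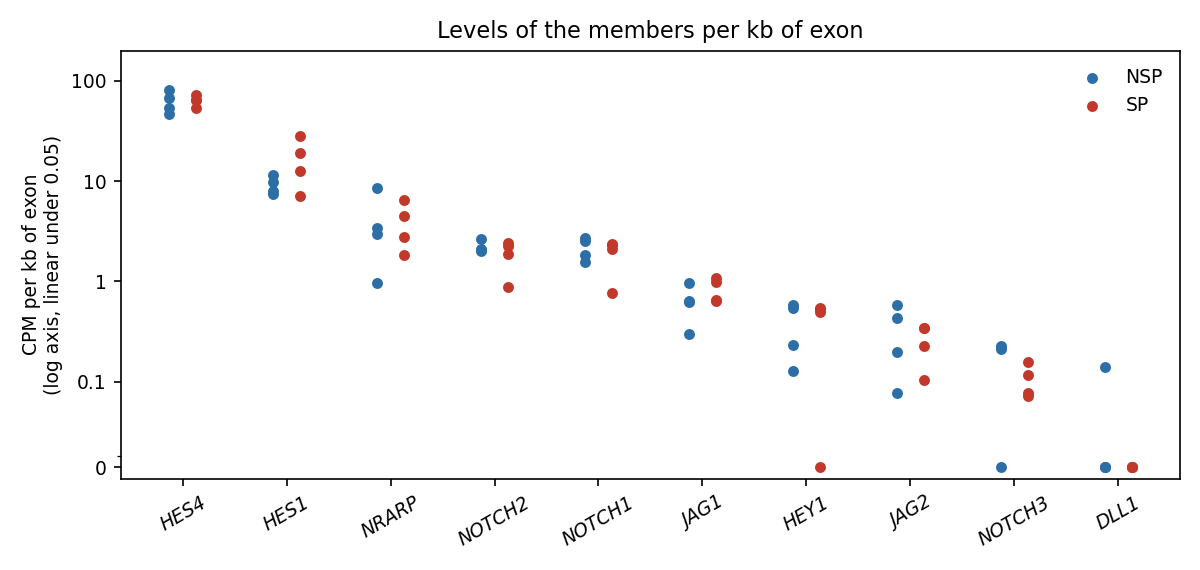
CPM per kb of exon in each library (log axis, linear under 0.05), with genes ordered by their mean, NSP in blue and SP in red. HES4 and HES1 occupy the top at 63.3 and 13.02 CPM per kb, and the receptors NOTCH2 and NOTCH1 sit side by side at 2.03 and 2.02.

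HES1 (ENSG00000114315.3, chromosome 3 of GRCh37, 193853937 to 193856521, plus strand) encodes a repressor that is a direct target of the Notch nuclear complex and that also represses its own gene. Its counts in SP replicates 1 to 4 were 55, 22, 108 and 35, or 39.6, 14.7, 58.5 and 25.8 CPM. In NSP replicates 1 to 4 they were 29, 41, 37 and 24, or 15.4, 20.2, 23.6 and 16.6 CPM. SP replicates 1, 3 and 4 were above every NSP library, and SP replicate 2 was below all of them, so the groups overlapped. The SP libraries spread 3.97-fold from the lowest to the highest, and the NSP libraries 1.53-fold. The log2 fold change of SP over NSP was 0.89 (standard error, SE, 0.33, 95% interval 0.19 to 1.58), and HES1 was not called (edgeR, unadjusted p = 0.0163, adjusted p = 0.177). Permuting the libraries exactly (2-sided, on log2(CPM + 1)) gave p = 0.2, where 0.0286 is the smallest p that 4 libraries against 4 allow. HES1 was the 1 member of the 5 tested with an unadjusted p under 0.05, a threshold that 16.4% of all tested genes passed. DESeq2 and limma voom also called 0 of the members. The SP and NSP libraries overlapped for each of the 5, where 9.75% of all tested genes showed no overlap.

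Libraries of the same replicate number deviated together from their group means, so a model with the replicate number as a block was fitted as well. There HES1 was called higher in SP cells, with a log2 fold change of 0.79 (standard error 0.22, 95% interval 0.35 to 1.23, edgeR, adjusted p = 0.00646). That model called 5.89% of the tested genes higher and 7% lower, so many more genes pass it than the model without the block. HES1 was higher in the SP library of 3 of the 4 numbers, with differences in log2(CPM + 1) of 1.31 for number 1, 1.27 for number 3 and 0.61 for number 4, and -0.43 for number 2. Single libraries decide much of the size of the difference. Without SP replicate 3 the log2 fold change was 0.49 (adjusted p = 0.464), and without SP replicate 2 it was 1.14 and HES1 was called (adjusted p = 0.0483).

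**Figure D3:**
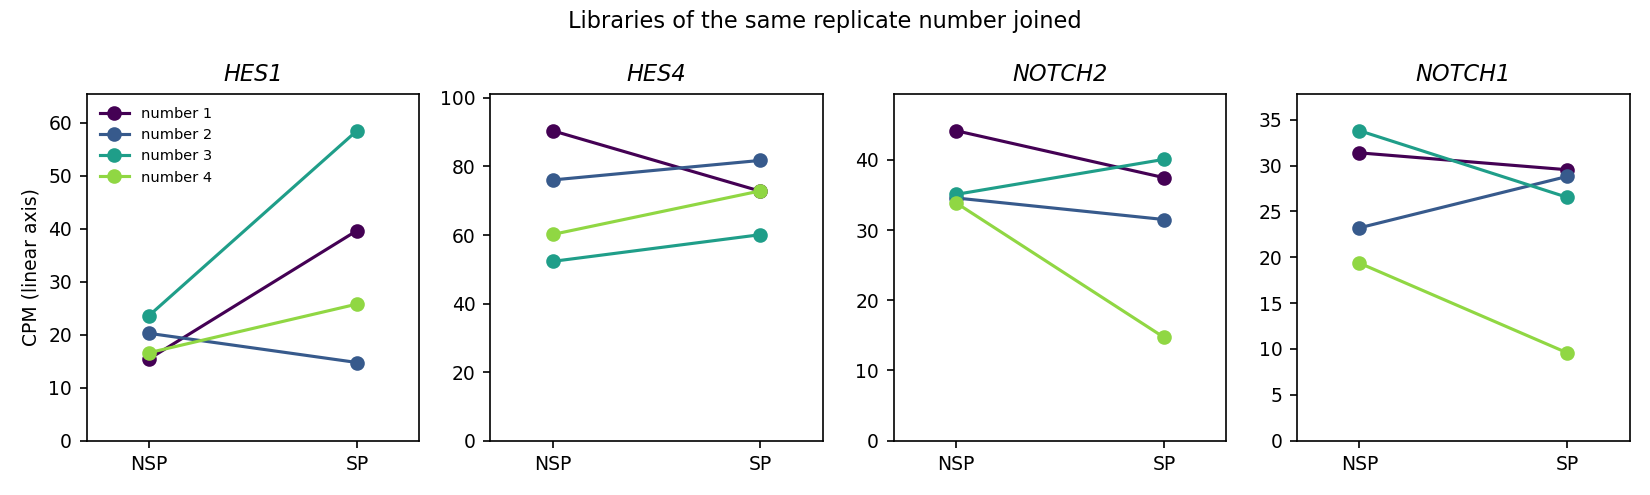
CPM of HES1, HES4, NOTCH2 and NOTCH1 (linear axes) in NSP and SP libraries, with a line joining libraries of the same replicate number. For HES1, numbers 1, 3 and 4 go up from NSP to SP and number 2 goes down, from 20.2 to 14.7 CPM, while for both receptors the steepest line is number 4, going down.

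HES4 (ENSG00000188290.6, chromosome 1, 934342 to 935552, minus strand) encodes another repressor of the HES family. It had the most counts of the members, with 101, 122, 111 and 99 in SP replicates 1 to 4 and 170, 154, 82 and 87 in NSP replicates 1 to 4. In CPM these were 72.8, 81.8, 60.1 and 72.9 in SP and 90.4, 76.1, 52.3 and 60.2 in NSP libraries. The SP values lay inside the range of the NSP values, and the means were 71.9 CPM (SD 8.91) and 69.7 CPM (SD 17.0). The log2 difference was 0.04, with a standard error of 0.19 (edgeR, adjusted p = 0.953). The 95% interval, -0.37 to 0.44, corresponds to 0.776-fold to 1.35-fold, which makes HES4 the most narrowly measured of the 5 tested members.

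NRARP (ENSG00000198435.2, chromosome 9, 140194083 to 140196723, minus strand) encodes a small ankyrin repeat protein that binds the Notch nuclear complex and dampens its signal. Its counts were 24, 11, 9 and 16 in SP replicates 1 to 4, or 17.3, 7.37, 4.87 and 11.8 CPM. In NSP replicates 1 to 4 they were 42, 16, 4 and 13, or 22.3, 7.90, 2.55 and 8.99 CPM. In both populations number 1 was the highest library and number 3 the lowest, and the NSP libraries spread 8.76-fold. The log2 fold change was -0.08 (SE 0.49, adjusted p = 0.96, edgeR's quasi-likelihood test). Its 95% interval of -1.13 to 0.97 spans 0.457-fold to 1.96-fold. With the replicate block the value was 0.04, with an interval of -0.58 to 0.65.

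HEY1 (ENSG00000164683.12, chromosome 8, 80674606 to 80680092, minus strand), a repressor of the HEY family, had 4, 0, 5 and 4 counts in SP replicates 1 to 4 and 6, 6, 2 and 1 in NSP replicates 1 to 4. Its level averaged 2.13 ± 1.43 CPM in the SP and 2.03 ± 1.24 CPM in the NSP libraries (± SD, n = 4). A count of 0 in a library allows up to 3 counts, which is 1.62 to 2.21 CPM in the SP libraries and 1.48 to 2.07 CPM in the NSP libraries (counting error only), and SP replicate 2 is such a library. HEY1 did not pass the filter, and without the filter its log2 fold change was -0.02 with a 95% interval of -1.30 to 1.26 (edgeR, adjusted p = 0.986).

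NOTCH1 (ENSG00000148400.9, chromosome 9, 139388885 to 139440500, minus strand) had 41, 43, 49 and 13 counts in SP replicates 1 to 4, or 29.5, 28.8, 26.5 and 9.57 CPM. In NSP replicates 1 to 4 it had 59, 47, 53 and 28 counts, or 31.4, 23.2, 33.8 and 19.4 CPM. SP replicates 1, 2 and 3 lay inside the NSP range and SP replicate 4 lay below it. The log2 fold change was -0.18 (standard error 0.29, 95% interval -0.81 to 0.44, edgeR, adjusted p = 0.824). Without SP replicate 4 the direction turned, to 0.06.

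NOTCH2 (ENSG00000134250.13, chromosome 1, 120454176 to 120643366, minus strand) showed the same low library. Its counts were 52, 47, 74 and 20 in SP replicates 1 to 4, or 37.5, 31.5, 40.1 and 14.7 CPM, and 83, 70, 55 and 49 in NSP replicates 1 to 4, or 44.2, 34.6, 35.1 and 33.9 CPM. The NSP libraries were close together, spreading 1.303-fold, against 2.72-fold in SP cells. The log2 fold change was -0.25 (standard error 0.25, 95% interval -0.78 to 0.29, adjusted p = 0.693), and without SP replicate 4 it was -0.03. Of the 50-base windows of its annotated transcripts, 7.39% also occur in other genes, chiefly the partial NOTCH2 copies NOTCH2NLA, NOTCH2NLB, NOTCH2NLC and NOTCH2NLR, so reads from those windows may have been lost or split by the counting. For NOTCH1, HES1, HES4 and HEY1 no such window is shared with another annotated gene.

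SP replicate 4 was the low library for both receptors. The log2(CPM + 1) of SP replicate 4 deviated from the 8-library mean by -1.24 for NOTCH1 and -1.096 for NOTCH2. Over the 1997 tested genes with at least 8000 bp of exon, the median deviation of that library was -0.01, and the 8 libraries ran from -0.03 to 0.09. A median does not show the spread among these genes, and the cause of the low receptor values in SP replicate 4 was not tested.

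NOTCH3 (ENSG00000074181.4, chromosome 19, 15269849 to 15311806, minus strand) was near the limit of detection in the deposited counts. It had 1, 1, 2 and 2 counts in SP replicates 1 to 4 and 4, 4, 0 and 3 in NSP replicates 1 to 4. Its level averaged 0.986 ± 0.372 CPM in the SP and 1.54 ± 1.03 CPM in the NSP libraries (± SD, n = 4). Fitted without the filter, which it did not pass, NOTCH3 had a log2 fold change of -0.66 with a 95% interval of -2.35 to 1.03 (edgeR, adjusted p = 0.743).

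Among the ligands, JAG1 (ENSG00000101384.7, chromosome 20, 10618332 to 10654647, minus strand) had the most counts. It had 14, 9, 17 and 8 counts in SP replicates 1 to 4 and 11, 18, 9 and 4 in NSP replicates 1 to 4, or 7.80 ± 2.16 CPM in the SP and 5.81 ± 2.501 CPM in the NSP libraries (± SD, n = 4). The groups overlapped (exact 2-sided permutation of log2(CPM + 1) values, p = 0.143). JAG1 did not pass the filter. Fitted without the filter, its log2 fold change was 0.37 with a 95% interval of -0.41 to 1.14 (adjusted p = 0.658, edgeR's quasi-likelihood test). The lncRNA ENSG00000270792, whose exons cross those of JAG1 by 306 bp on the other strand, had 60 counts, or 22.9 per kb of exon against 9.68 per kb for JAG1. It held 19 of its counts in SP and 41 in NSP libraries, and with both genes summed the log2 fold change was -0.09 (95% interval -0.75 to 0.56).

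JAG2 (ENSG00000184916.4, chromosome 14, 105607319 to 105635161, minus strand) had 2, 1, 4 and 3 counts in SP replicates 1 to 4 and 7, 1, 2 and 4 in NSP replicates 1 to 4. Its level averaged 1.62 ± 0.725 CPM in the SP and 2.06 ± 1.45 CPM in the NSP libraries (± SD, n = 4). Without the filter, its log2 fold change was -0.32 with a 95% interval of -1.75 to 1.103 (edgeR, adjusted p = 0.878). DLL1 (ENSG00000198719.7, chromosome 6, 170591294 to 170615653, minus strand) had 1 count, in NSP replicate 1, and 0 in the other 7 libraries. FAM120B, which crosses 370 bp of the exons of DLL1 on the other strand, had 57 counts over the same libraries. A library with 0 counts allows up to 2.21 CPM in SP and 2.07 CPM in NSP cells, and no fold change is given for DLL1.

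**Figure D4:**
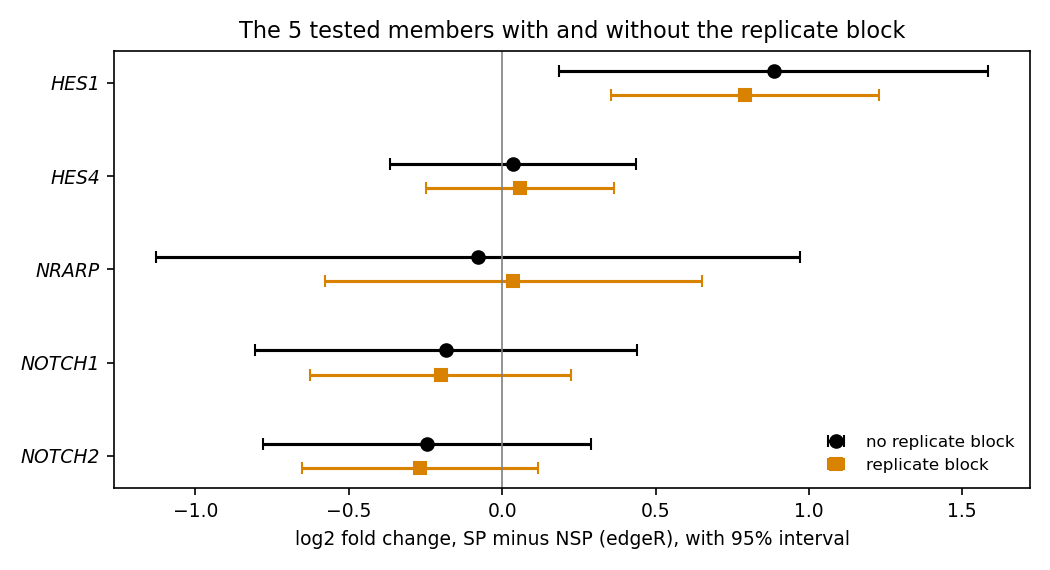
Log2 fold change of SP over NSP for the 5 tested members from edgeR's quasi-likelihood test, with 95% intervals, without the replicate block (black circles) and with it (orange squares). The interval of HES1 lies above 0 in both models, from 0.19 to 1.58 and from 0.35 to 1.23, and the intervals of the other 4 genes include 0 in both.

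Ratios of counts within a library do not depend on how libraries are scaled, and 5 of them were compared between the populations. HES1 had 0.545, 0.18, 0.973 and 0.354 counts per HES4 count in SP replicates 1 to 4, and 0.171, 0.266, 0.451 and 0.276 in NSP replicates 1 to 4. The log2 ratio was 0.64 higher in SP cells (exact two-sided permutation test, p = 0.314, adjusted p = 0.5 over the 5 ratios). A change of HES1 relative to HES4 between the populations was therefore not shown. The difference in this log2 ratio was 0.25 without SP replicate 3 and 1.06 without SP replicate 2 (exact permutation p = 0.0857). Against NOTCH2, the HES1 ratio was 0.468 to 1.75 in SP and 0.349 to 0.673 in NSP libraries, a log2 difference of 1.06 (exact permutation p = 0.114, adjusted p = 0.357). The HES1 to NOTCH1 ratio differed by 0.997 on the log2 scale (exact permutation p = 0.143, adjusted p = 0.357), and the HES4 to NOTCH2 ratio by 0.41 (exact permutation p = 0.4, adjusted p = 0.5). Without SP replicate 2, the differences of HES1 to NOTCH2 and to NOTCH1 were 1.45 and 1.49. Each had an unadjusted exact permutation p of 0.0286, the smallest that 3 libraries against 4 allow. Leaving out any other single library gave 0.816 to 1.19 for HES1 to NOTCH2 (exact permutation p of 0.114 to 0.2). For HES1 to NOTCH1 the range was 0.690 to 1.095 (exact permutation p of 0.171 to 0.257). Both ratios share the HES1 counts, so their p-values are not independent. The HES4 to NOTCH2 difference was 0.079 without SP replicate 4 and 0.65 without SP replicate 3. The ratio of NOTCH2 to NOTCH1 was 1.09 to 1.54 in SP and 1.04 to 1.75 in NSP libraries. Its log2 difference was -0.06 (exact permutation p = 0.771, adjusted p = 0.771), and the ratio in SP replicate 4, at 1.54, lay inside the NSP range.

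The genes whose log2(CPM + 1) was most like that of HES1 over the 8 libraries, among 9308 tested genes, were TOB1, UGP2 and ENSG00000163113, which has no symbol in the annotation used. TOB1 encodes an antiproliferative protein and UGP2 the enzyme that makes UDP-glucose. Pearson's r was 0.963, 0.958 and 0.936, and without SP replicates 1 and 3, the libraries farthest from the median of HES1, it was 0.828, 0.701 and 0.893. These values describe genes picked for their likeness and carry no test. None of the 3 was called between the populations, with log2 fold changes of 0.44, 0.35 and 0.69 and adjusted p-values of 0.491, 0.599 and 0.388 (edgeR's quasi-likelihood test).

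The other genes of the pathway were taken from a list of 72, ordered by their step in the signal. Of these, 67 had at least 1 count and 42 were tested, and 0 were called in either direction, and an unadjusted p below 0.05 was reached by 2 that were higher and 0 that were lower, against 16.4% of all tested genes in either direction (edgeR's quasi-likelihood test; DESeq2 also called 0). Their median log2 fold change was -0.02, with 19 positive and 23 negative values, against a median of 0.01 over all tested genes. For 1 of the 42 the SP and NSP values had no overlap, against the 9.75% of all tested genes.

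None of the 7 further receptors and ligands on the list was tested. NOTCH4 had 15 counts over the 8 libraries, DLL3 4, DLL4 2 and DLK1 0. Of 6 genes of fringe and other glycosylation, which tune the sensitivity of the receptors to their ligands, POFUT1 and RFNG were tested. POFUT1, the O-fucosyltransferase of Notch, was at 64.3 ± 7.42 CPM in the SP and 56.4 ± 10.3 CPM in the NSP libraries (± SD, n = 4), with a log2 fold change of 0.19 (adjusted p = 0.656, edgeR). LFNG had 21 counts in all and was not tested.

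Among the 9 proteases, 8 were tested and 0 called. ADAM10, which makes the first of the ligand-induced cuts, had a log2 fold change of -0.20 (adjusted p = 0.826, edgeR). PSEN2, a catalytic subunit of gamma-secretase, had 17, 16, 24 and 13 counts in SP replicates 1 to 4 and 17, 11, 7 and 13 in NSP replicates 1 to 4. In CPM these were 12.2, 10.7, 12.99 and 9.57 in SP and 9.04, 5.43, 4.46 and 8.99 in NSP libraries, so that every SP library was above every NSP library, by a small margin. Its log2 fold change was 0.71 (SE 0.31, adjusted p = 0.256, edgeR's quasi-likelihood test), and it was not called. The subunit NCSTN had a log2 fold change of 0.54 (adjusted p = 0.319, edgeR). The subunits APH1A and PSENEN were at 0.07 and -0.60, so these 4 subunits had no single direction.

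The nuclear complex had 7 tested genes of 10 and 0 called. RBPJ, the DNA-binding factor, had only 86 counts and a log2 fold change of 0.36 (standard error 0.40, adjusted p = 0.727, edgeR), and the coactivator MAML1 was at -0.30 (adjusted p = 0.684). Of 15 corepressor genes 14 were tested. KDM5A, a histone H3K4 demethylase that acts with RBPJ, had 32, 36, 32 and 17 counts in SP replicates 1 to 4 and 24, 24, 14 and 19 in NSP replicates 1 to 4, or 19.3 ± 5.40 CPM and 11.7 ± 1.91 CPM (SD, n = 4 each). SP replicates 1, 2 and 3 were above every NSP library, and SP replicate 4 was not. The log2 fold change was 0.72 (SE 0.27, adjusted p = 0.181, edgeR's quasi-likelihood test), and KDM5A was not called. With the replicate block KDM5A was called higher, at 0.73 (edgeR, adjusted p = 0.0423). It was the 1 gene so called of the 42 tested on the list, where that model called 5.89% of all tested genes higher. KDM5A shares exon sequence with a gene of the opposite strand. The corepressor TLE3 was at -0.86 and was not called. Among 7 further HES and HEY genes, HES6 alone was tested, with a log2 fold change of -0.02 (adjusted p = 0.993), while HES2, HES3 and HES5 had no count.

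**Figure D5:**
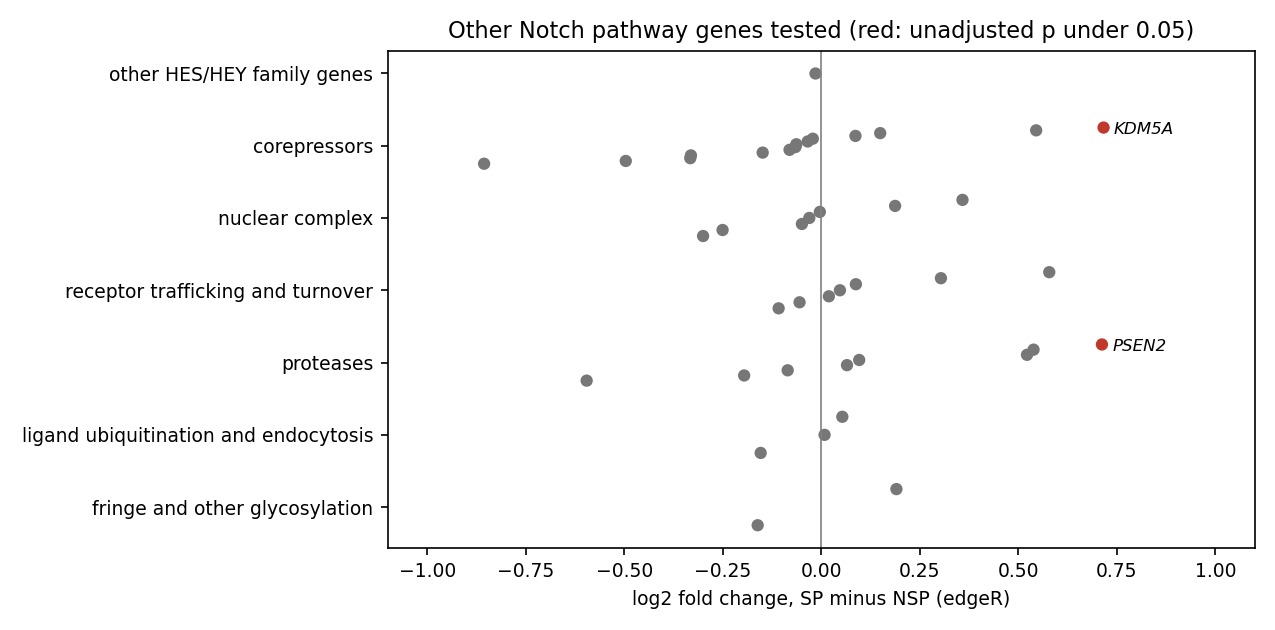
Log2 fold change of SP over NSP (edgeR) for the 42 tested genes of the pathway list by role, 1 point per gene, with unadjusted p under 0.05 in red. PSEN2 at 0.71 and KDM5A at 0.72 are the 2 red points, and the other genes lie on both sides of 0 around a median of -0.02.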

How the data were processed

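RNA-seq of 4 SP and 4 NSP libraries of J82 was used. The authors used STAR for alignment to hg19 and featureCounts (Subread) for counting on the gencode 19 gene set, and deposited raw counts for 57820 genes. The versions of these tools, the strand setting and the handling of reads that match several genes are not given in the sources used here. Symbols, positions and merged exon lengths were joined by unversioned identifier from GENCODE version 44 lifted to GRCh37, which is hg19 (96.1% of genes). Values per kb therefore divide counts on the gencode 19 gene set by lengths from a later annotation.

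Differences between SP and NSP were tested with edgeR 4.0.16 under R 4.3.3 (TMM, filterByExpr with a minimum count of 10 and total of 15, glmQLFit, glmQLFTest, no covariate), with Benjamini-Hochberg adjustment over all tested genes. A standard error is the log2 fold change over the square root of F. The scripts were tested on simulated data. Alternatives were DESeq2 1.42.0, limma 3.58.1 voom, other normalizations and filters, the replicate block and leaving out libraries. SP and NSP libraries of one number were correlated in how they departed from their group means (0.383, 0.205, 0.323 and 0.323 for numbers 1 to 4), and were treated as pairs in the block. Replicates of a group differed by more than sampling noise (chi-square per degree of freedom 5.70 to 13.2).

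The members and lists were chosen with earlier results of these data known. Named genes are the members, pathway list genes at an unadjusted p under 0.05, genes crossing a member's exons, and the 3 genes most like the member with the smallest p. Other pathway genes were named after their values were seen, and some are not reported here. Sequences and 50-base windows were handled in Python 3.11.15.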

Additional observations from a re-analysis of the deposited data

Results flagged for a closer look

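In the groups of 4 libraries of the tested members, 2 of 10 had 1 library far from the other 3, where chance flags about 1 in 20. Divided by the range of the group, the gap to the nearest library came to 0.849 for NOTCH1 in SP cells (replicate 4, the lowest) and 0.883 for NOTCH2 in NSP cells (replicate 1, the highest).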

How the results depend on the processing

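With the replicate block, 1 member was called higher (HES1, 0.79) and 1 pathway list gene (KDM5A), where that model called 5.89% of all tested genes higher. NRARP turned to 0.036 there, and no other call of a member or list gene changed. Without a filter, 1 member was called higher (HES1, 0.86), where that fit called 2.59% of its 26361 genes in either direction. NRARP was 0.20 with limma voom. Leaving out single libraries gave 0 to 1 members called higher, and log2 fold changes of -0.31 to 0.060 for NOTCH1, -0.40 to -0.029 for NOTCH2, 0.49 to 1.14 for HES1, -0.082 to 0.18 for HES4 and -0.45 to 0.62 for NRARP. HES4 turned to -0.082 without NSP replicate 3, -0.035 without NSP replicate 4, -0.034 without SP replicate 2 and, chosen after seeing the data, -0.043 without both libraries numbered 4. NRARP turned to 0.62 without NSP replicate 1, 0.045 without SP replicate 2 and 0.18 without SP replicate 3, and NOTCH1 to 0.060 without SP replicate 4. The log2 difference of the NOTCH2 to NOTCH1 ratio ran from -0.20 (without NSP replicate 3) to 0.048 (without NSP replicate 4), and was 0.038 without SP replicate 2. The causes of these changes were not tested. Over all alternatives with an adjusted p, that of HES1 ran from 0.00646 to 0.464. No member or list gene was called lower under any alternative. Adding the counts of partial NOTCH2 copies was not run, since no counted gene matched one by identifier.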
